A study of Mus musculus with 4 samples.

Results

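The 10 transcripts described here encode regulators of the unfolded protein response, the programme by which a cell answers a build-up of misfolded protein in the endoplasmic reticulum (ER). They were chosen by name, with earlier results of these data known: Ern1, Eif2ak3, Atf6, Xbp1, Atf4, Ddit3, Trib3, Herpud1, Sdf2l1 and Creld2. On the arrays they were read by 26 probe sets, of 34945 probe sets that the platform annotation gives 1 gene symbol, which together stand for 18193 genes. A probe set is a group of short DNA probes for 1 transcript region. All 26 entered the test, none was removed for a low value, and probe sets of the same gene were kept separate.

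Sensors in the ER membrane open the branches of the response. IRE1α, encoded by Ern1, is a kinase and ribonuclease that splices Xbp1 mRNA, and the spliced form yields a transcription factor for ER chaperone and degradation genes. PERK, encoded by Eif2ak3, phosphorylates the translation factor eIF2α, which lowers general translation and favours that of Atf4. ATF4 in turn acts on Ddit3, which encodes CHOP, and on Trib3. ATF6 is cut in the Golgi into a transcription factor that acts on chaperone genes and on Xbp1. Splicing, phosphorylation, cleavage and translation were not measured here, since the arrays read the amount of RNA only. Neurons make large amounts of membrane and secreted protein and express these genes without stress.

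RNA came from prelimbic cortex punches (the prelimbic area is a field of the medial prefrontal cortex). The mice were male and were sampled on postnatal day 90. The exposed group was male mice given fluoxetine, a selective serotonin reuptake inhibitor, through the mother before birth, and the control group was untreated male mice. Each group held 2 arrays, and 250 ng of total RNA entered the biotin labelling for each array. The submitters call the arrays biological duplicates. The labels do not give strain, dose or litter, and do not say if RNA of 1 mouse or of several went onto an array, so that the p-values speak of the spread among these 4 arrays only. In a tissue punch, fewer cells of a type and less RNA per cell cannot be told apart.

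Of the 4 arrays, the fluoxetine ones had median log2 intensities of 6.44 and 6.47 and the untreated ones 6.50 and 6.48. Over all probe sets arrays correlated at 0.9957 to 0.9970 between groups. Within groups the correlation was 0.9972 for fluoxetine and 0.9963 for untreated. All 7 measured markers of cortical excitatory neurons lay above the median level of all tested probe sets, 7.12. So did those of interneurons (8 of 8), astrocytes (8 of 8), oligodendrocytes (7 of 7) and microglia (7 of 7), so that this shows brain tissue and does not tell cortex from other regions. Differences between the groups leaned with level across the whole array: among probe sets above the median level 10.0% had an unadjusted p below 0.05 and a higher value with fluoxetine, and 1.68% a lower value. At or below it these shares were 2.76% and 4.41%. Poly-A control transcripts, added before labelling, were higher on the fluoxetine arrays by a median of 0.24 on the log2 scale, in 24 of 24 probe sets. Of the marker lists, 9 of 26 astrocyte probe sets were higher and 0 lower at that threshold, and the median difference of the astrocyte genes was 0.03. Their summed intensities were 17735 to 18268 with fluoxetine and 16679 to 17413 without. Summed meningeal fibroblast markers read 2823 to 2828 with fluoxetine and 2488 to 2748 without, and 2 of 14 probe sets were higher and 0 lower. The sum of striatal markers was 9222 in untreated replicate 2 and 3835 to 4993 elsewhere. Of the 6 measured striatal genes 0 had a difference above 0, and their median difference was −0.57. The sum of choroid plexus markers was 3754 in fluoxetine replicate 1 and 493 to 906 elsewhere. The part of these differences in the results below was not tested. The lowest log2 value among the brightest probe sets of the marker genes was 2.29, in the choroid plexus list. Of its 7 measured genes, 2 lay above the median level. Whether a marker was detected was not tested.

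The comparison asked how prenatal fluoxetine exposure altered adult prelimbic transcripts. Xbp1 was the member whose probe sets separated the groups together: in all 4 of them both fluoxetine arrays lay above both untreated arrays, by 1.06-fold to 1.22-fold. All 4 lay above the median level, where 27.5% of all probe sets had that arrangement. The brightest probe sets of Ern1, Eif2ak3 and Atf6, the 3 sensors, differed by at most 0.03 on the log2 scale. Dim probe sets of Eif2ak3, built on 1 database sequence, and 1 of the 2 of Trib3 lay lower on both fluoxetine arrays, by up to 0.49. So did 1 dim probe set of Atf4 and 1 of Ern1, with log2 differences of −0.20 and −0.11. The same arrangement held in 25.0% of all probe sets at or below the median level. Creld2 and Sdf2l1, which encode ER-resident proteins, had differences of 0.20 and 0.16.

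No member probe set passed the correction for all 34945 tests in the limma fit, where the lowest adjusted p among the members was 0.381 and 1 probe set of the whole array passed, 0.00286%. At an unadjusted p below 0.05, 3 of the 26 member probe sets were higher and 1 was lower. Of all probe sets 9.45% passed, 6.40% higher and 3.04% lower, or 79.6% of the passing ones higher when array medians were subtracted in place of 67.8%. The members' share of higher probe sets, 11.5%, rests on 3 probe sets of 2 genes. Of the 15 members above the median level, 3 were higher and 0 lower, against 10.0% and 1.68% at that level. Of the 11 at or below it, 0 were higher and 1 was lower, against 2.76% and 4.41%. Both fluoxetine arrays lay above both untreated arrays in 10 of the 26 member probe sets, against 19.9% of all, and below them in 5, against 20.0%. The first arrangement held in 9 of the 15 brighter member probe sets, against 27.5% of all probe sets at that level, and the reverse in 0, against 15.0%. Among the 11 dimmer ones it held in 1, against 12.3%, and the reverse in 5, against 25.0%. Of the 9, 4 were probe sets of Xbp1 and 2 of Atf4. Of the 5, 2 were the Eif2ak3 probe sets that share 1 database sequence. The median log2 difference was 0.06 over the 26 and −0.01 over all probe sets. Above the median level it was 0.09 for the members and 0.02 for all probe sets, and at or below that level −0.11 and −0.05.

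**Figure D1:**
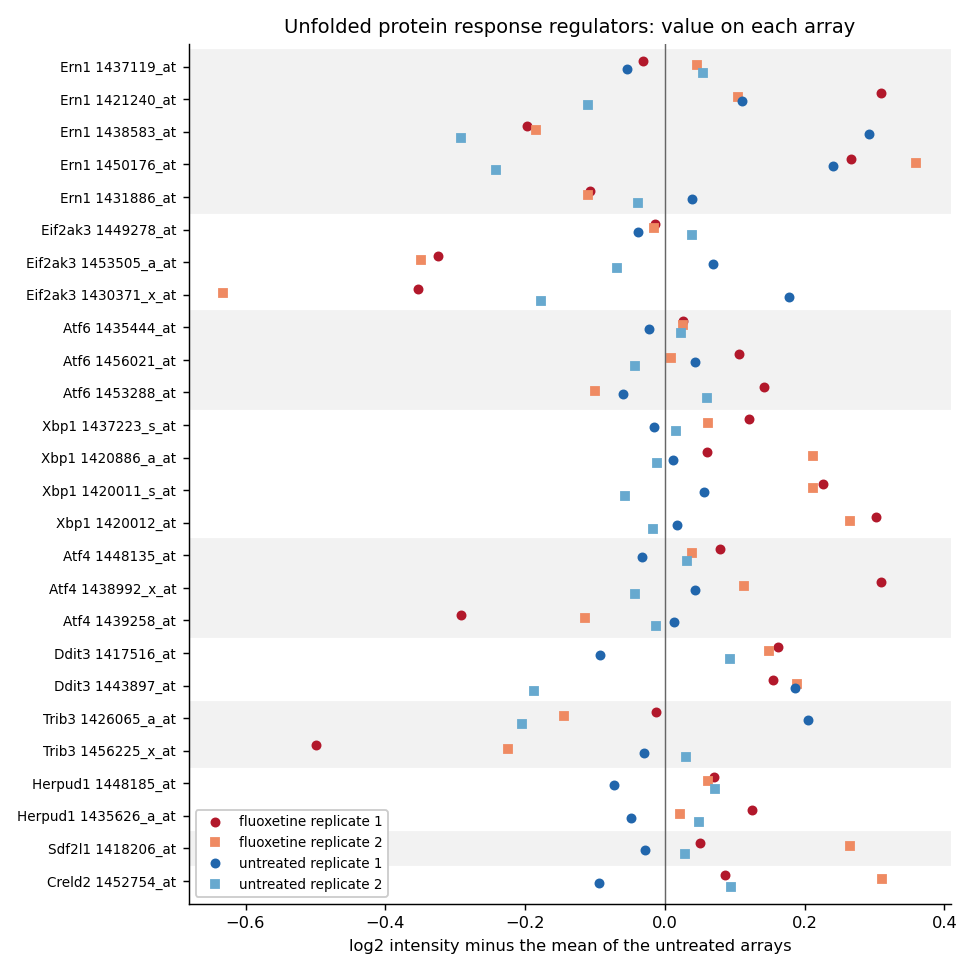
Value of each of the 26 member probe sets on each array, as log2 intensity minus the mean of the 2 untreated arrays (horizontal axis), with 1 row per probe set. Each symbol is 1 array, red and orange for fluoxetine replicates 1 and 2, dark and light blue for untreated replicates 1 and 2. In the 4 Xbp1 rows both fluoxetine symbols lie to the right of both untreated ones.

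Xbp1 encodes the transcription factor XBP1, which in its spliced form acts on ER chaperone, degradation and secretory genes. Probe set 1420011_s_at read 11.03 and 11.02 on the fluoxetine arrays and 10.86 and 10.75 on the untreated arrays. Probe set 1420012_at read 7.94 and 7.90 with fluoxetine and 7.65 and 7.62 without. Both were built on the same database sequence, so that they are not independent readings. In each, the gap between the groups was wider than the spread within either group. Their log2 differences were 0.22 (95% interval 0.09 to 0.35, unadjusted p = 0.00594, adjusted p = 0.381 by limma) and 0.28 (0.08 to 0.48, unadjusted p = 0.0120, adjusted p = 0.416).

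The other Xbp1 probe sets are the brightest of the gene. Probe set 1437223_s_at read 11.94 and 11.88 with fluoxetine and 11.80 and 11.83 without, a log2 difference of 0.09 (95% interval −0.02 to 0.20). Probe set 1420886_a_at, built on the RefSeq mRNA, read 11.64 and 11.79 with fluoxetine and 11.59 and 11.56 without, a difference of 0.14 (95% interval −0.0040 to 0.28). The groups again did not overlap, and the unadjusted p was 0.0881 and 0.0552 (adjusted p = 0.591 and 0.540 by limma). The difference of 1420886_a_at was 0.21 without fluoxetine replicate 1, with an unadjusted p of 0.0146, and 0.06 without fluoxetine replicate 2. Its unadjusted p was 0.0284 when array medians were subtracted. With any 1 array left out the difference of 1420011_s_at stayed between 0.16 and 0.28 and its unadjusted p below 0.05. That of 1420012_at was between 0.26 and 0.30, with an unadjusted p of 0.0811 without fluoxetine replicate 1 and 0.0534 without fluoxetine replicate 2. None of these probe sets is annotated as telling spliced from unspliced Xbp1, and splicing was not analysed here.

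Ern1 had 5 probe sets, and they did not share a direction: 3 had differences above 0 and 2 below. Its brightest, 1437119_at, read 7.87 and 7.94 with fluoxetine and 7.85 and 7.95 without, a log2 difference of 0.01 (95% interval −0.20 to 0.22). The fluoxetine arrays lay between the untreated ones. The other 4, a pair of which share 1 database sequence, lay below the median level of all probe sets and ranged from −0.19 to 0.31, with 95% intervals that all included 0. Of these 4, 1431886_at was lower on both fluoxetine arrays, with a difference of −0.11, and 1450176_at was higher on both. The highest of them, 1450176_at, was 0.31 with all arrays and 0.07 without untreated replicate 2, the array on which it read 3.89 against 4.37 to 4.49. Without untreated replicate 1 it was 0.55, with an unadjusted p of 0.0263. The lowest, 1438583_at, was −0.48 without untreated replicate 2, with an unadjusted p of 0.0383, and 0.10 without untreated replicate 1.

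Eif2ak3 had 3 probe sets, and the bright one stood apart from the dim ones. Probe set 1449278_at, built on the RefSeq mRNA, read 9.34 on both fluoxetine arrays and 9.32 and 9.40 on the untreated arrays. Its log2 difference was −0.02 (95% interval −0.17 to 0.14), with the fluoxetine arrays between the untreated ones. The other probe sets share 1 database sequence, and both lay lower on both fluoxetine arrays. Probe set 1453505_a_at read 4.87 and 4.84 with fluoxetine and 5.26 and 5.12 without, a difference of −0.34 (95% interval −0.68 to 0.0039, unadjusted p = 0.0520 by limma). Without the intensity trend its unadjusted p was 0.0135. Probe set 1430371_x_at read 3.34 and 3.06 with fluoxetine and 3.87 and 3.52 without, a difference of −0.49 (95% interval −0.96 to −0.02, unadjusted p = 0.0428, adjusted p = 0.513). The suffix _x_at marks probe sets in which some probes match other transcripts. Without fluoxetine replicate 2 or untreated replicate 1 its unadjusted p was 0.211 and 0.205, and after another quantile normalization 0.0698. At these levels 25.0% of all probe sets had both fluoxetine arrays below both untreated arrays.

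Atf6 encodes the sensor that is itself the precursor of a transcription factor, and its 3 probe sets differed by 0.02 to 0.06. The brightest, 1435444_at, read 10.45 and 10.45 with fluoxetine and 10.40 and 10.45 without. Its log2 difference was 0.03 (95% interval −0.10 to 0.15), and −0.011 after another quantile normalization. The fluoxetine arrays stood above the nearer untreated array by less than the untreated arrays stood from each other. For the probe sets 1456021_at and 1453288_at the groups overlapped.

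**Figure D2:**
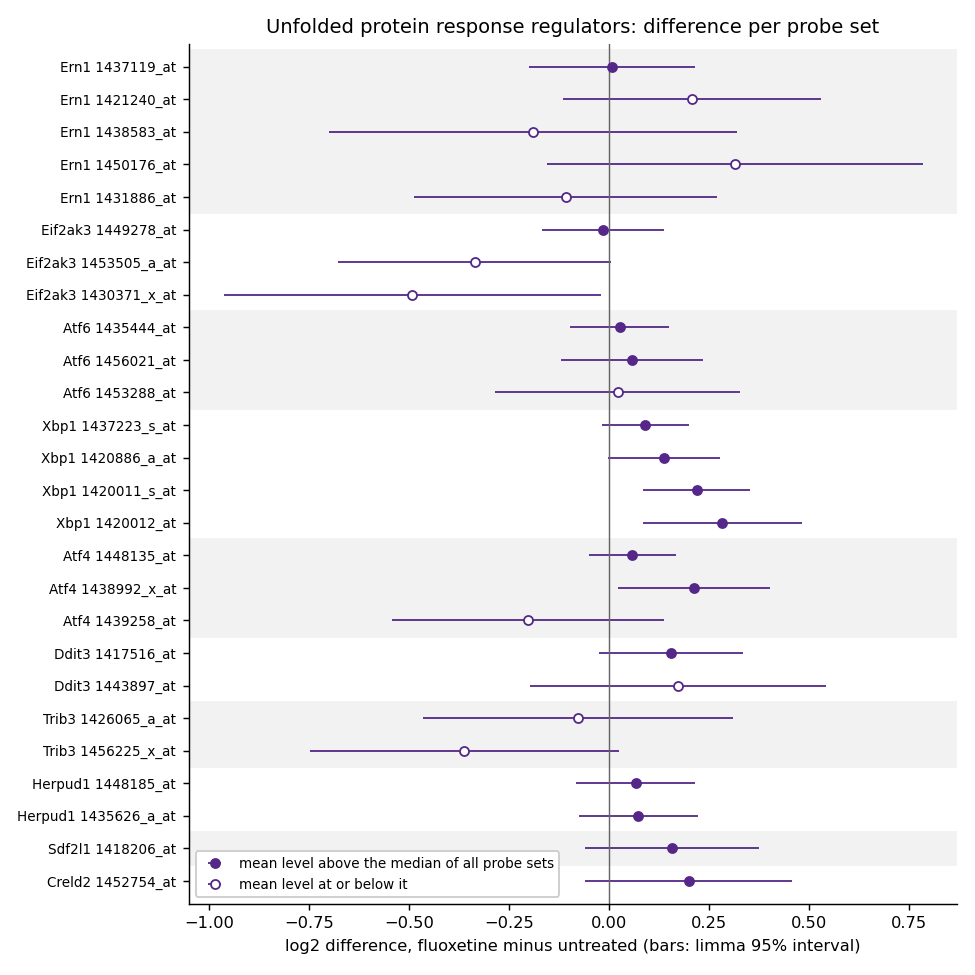
Log2 difference, fluoxetine minus untreated (horizontal axis), of each member probe set, with the 95% interval of the limma fit as bars; filled points are probe sets whose mean level lies above the median of all tested probe sets. The intervals of 2 Xbp1 probe sets and of Atf4 1438992_x_at lie above 0, that of Eif2ak3 1430371_x_at lies below 0, and the other 22 include 0.

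The transcription factors below PERK were read on both bright and dim probe sets. Atf4 encodes the factor whose translation rises when eIF2α is phosphorylated. Its brightest probe set, 1448135_at, read 11.9985 and 11.96 with fluoxetine and 11.89 and 11.95 without. Both fluoxetine arrays were higher, with the nearest arrays of the groups 11.96 and 11.95, and the log2 difference was 0.06 (95% interval −0.05 to 0.17). Probe set 1438992_x_at read 9.93 and 9.74 with fluoxetine and 9.67 and 9.58 without, a difference of 0.21 (95% interval 0.02 to 0.40, unadjusted p = 0.0338, adjusted p = 0.490 by limma). It was 0.11 without fluoxetine replicate 1, with an unadjusted p of 0.262, and its p was 0.0513 without untreated replicate 1 and 0.151 without untreated replicate 2. Without the intensity trend its unadjusted p was 0.0975, and after another quantile normalization 0.0573. The dim probe set 1439258_at went the other way, at 5.05 and 5.23 with fluoxetine and 5.35 and 5.33 without, a difference of −0.20 (95% interval −0.54 to 0.14). The Atf4 probe sets therefore had differences on both sides of 0.

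Ddit3 encodes CHOP, a transcription factor linked to cell death under lasting ER stress. Probe set 1417516_at, built on the RefSeq mRNA, read 9.68 and 9.66 with fluoxetine and 9.42 and 9.61 without. Both fluoxetine arrays were above both untreated arrays, of which untreated replicate 1 was the lower. The log2 difference was 0.15 (95% interval −0.03 to 0.34, unadjusted p = 0.0820 by limma), 0.06 without untreated replicate 1 and 0.25 without untreated replicate 2, where its unadjusted p was 0.0129. The dimmer probe set 1443897_at had a difference of 0.17 with overlapping groups, −0.014 without untreated replicate 2, and 0.36 with an unadjusted p of 0.0484 without untreated replicate 1.

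Trib3 encodes a pseudokinase that is induced through ATF4 and CHOP, and both of its probe sets lay below the median level. Probe set 1426065_a_at read 6.13 and 6.003 with fluoxetine and 6.35 and 5.94 without, so that the fluoxetine arrays fell between the untreated ones. Its log2 difference was −0.08 (95% interval −0.47 to 0.31). Probe set 1456225_x_at read 4.29 and 4.57 with fluoxetine and 4.76 and 4.82 without, a difference of −0.36 (95% interval −0.75 to 0.03, unadjusted p = 0.0628 by limma). Without the intensity trend its unadjusted p was 0.0327. Trib3 was thus the member with no probe set above the median level.

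**Figure D3:**
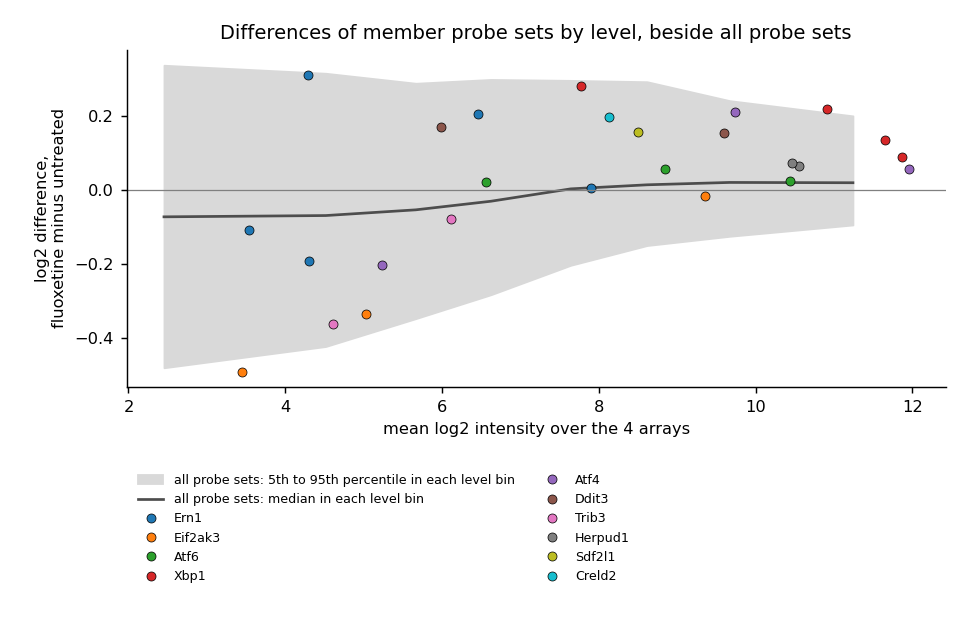
Log2 difference, fluoxetine minus untreated (vertical axis), against the mean log2 intensity over the 4 arrays (horizontal axis), with each point a member probe set coloured by gene. The grey band holds the 5th to 95th percentile of all probe sets in each of 8 bins of level and the line their median, which runs from −0.07 in the dimmest bin to 0.02 in the brightest.

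Herpud1, Sdf2l1 and Creld2 encode proteins that act in the ER membrane or lumen. HERP, from Herpud1, belongs to the complex that passes misfolded proteins to the proteasome. SDF2L1 works with the ER chaperone BiP, and CRELD2 is a secreted, ER-stress inducible protein with epidermal growth factor domains. Their 4 probe sets all lay above the median level, all had differences above 0 (median 0.12), and none passed an unadjusted p of 0.05.

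Sdf2l1, read by the probe set 1418206_at, stood at 8.48 and 8.69 with fluoxetine and 8.40 and 8.45 without. Both fluoxetine arrays were above both untreated arrays. The group means were 8.58 ± 0.15 and 8.43 ± 0.04 (SD, n = 2), and the log2 difference was 0.16 (95% interval −0.06 to 0.38). It was 0.05 without fluoxetine replicate 2 and 0.26 without fluoxetine replicate 1.

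Creld2, read by the probe set 1452754_at, stood at 8.11 and 8.34 with fluoxetine and 7.93 and 8.12 without. The groups overlapped, with fluoxetine replicate 1 just under untreated replicate 2. The group means were 8.23 ± 0.16 and 8.03 ± 0.13 (SD, n = 2), and the log2 difference was 0.20 (95% interval −0.06 to 0.46). It was 0.09 without fluoxetine replicate 2 and 0.31 without fluoxetine replicate 1.

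Herpud1 was read by 2 probe sets. Probe set 1448185_at stood at 10.58 and 10.58 with fluoxetine and 10.44 and 10.59 without. Probe set 1435626_a_at stood at 10.55 and 10.45 with fluoxetine and 10.38 and 10.47 without. Untreated replicate 1 was the lowest array in both, and the groups overlapped in both. Each had a log2 difference of 0.07 (95% interval −0.08 to 0.22). The difference of 1448185_at was −0.0060 without untreated replicate 1.

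Stress-responsive genes of this pathway are known for short promoter elements, and the promoters of Herpud1, Creld2 and Xbp1 are shown because those of Herpud1 and Creld2 hold such an element and Xbp1 is the member whose probe sets separated the groups together. The sequences are the 250 bases before the transcription start in RefSeq, build GRCm38.p6, plus strand, with element matches in capitals. Herpud1 lies at chr8:94386179-94386428, Creld2 at chr15:88819396-88819645 and Xbp1 at chr11:5520391-5520640.
Herpud1: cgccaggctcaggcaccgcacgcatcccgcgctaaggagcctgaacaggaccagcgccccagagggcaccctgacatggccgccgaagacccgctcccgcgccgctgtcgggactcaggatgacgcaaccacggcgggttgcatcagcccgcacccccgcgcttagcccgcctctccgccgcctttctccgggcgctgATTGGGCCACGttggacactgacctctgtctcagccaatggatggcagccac
Creld2: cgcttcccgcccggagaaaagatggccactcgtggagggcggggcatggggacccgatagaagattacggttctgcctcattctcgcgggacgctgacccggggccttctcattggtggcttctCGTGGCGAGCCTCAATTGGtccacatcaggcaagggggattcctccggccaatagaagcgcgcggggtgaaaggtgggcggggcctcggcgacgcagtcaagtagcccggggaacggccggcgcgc
Xbp1: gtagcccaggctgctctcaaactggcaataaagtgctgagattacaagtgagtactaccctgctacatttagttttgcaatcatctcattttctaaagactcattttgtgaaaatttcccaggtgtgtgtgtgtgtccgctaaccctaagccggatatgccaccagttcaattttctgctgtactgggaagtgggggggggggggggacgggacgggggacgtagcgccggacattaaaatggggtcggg
The 4 motifs were searched on both strands of the RefSeq windows, which run from 250 bases before to 50 after the start and were at hand for 9 of the 10 members; Atf6 had none. The ER stress element, CCAAT and CCACG spaced by 9 bases, was in 0.119% of 32851 windows, and among the members in Creld2, on the minus strand, 126 to 108 bases before the start. The ER stress element II, ATTGG and CCACG spaced by 1 base, was in 0.0365%, and among the members in Herpud1, 52 to 42 bases before the start. The UPR element TGACGTGG was in 0.676%, and TGATGNAAT, a form of the ATF4-type element with T as last base, in 0.965%. Neither was in a member's window. Forms of the ATF4-type element with another last base were not searched. The printed Herpud1 sequence holds gttgcatca, which on the minus strand differs from the searched form in the last base only. The windows of Creld2 and Herpud1 held 1 match each, so that no motif overlapped another there. A match describes the letters only, and a window without one says only that these letters are not in it.

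The ER chaperone genes Hspa5, Hsp90b1 and Calr also hold the ER stress element in their windows. The measured genes with that element had 44 probe sets of 20 genes, and their median log2 difference was 0.02. Of these, 8 passed an unadjusted p of 0.05 as higher and 2 as lower (18.2% and 4.55%, against 6.40% and 3.04% of all probe sets). Among the 8 are Hspa5 1416064_a_at and 1427464_s_at and Hsp90b1 1438040_a_at and 1415889_a_at, which the chaperone list below counts too. Above the median level 10.0% of all probe sets were higher. For genes with the element, the share at that level and the counts with an array left out were not computed. For the ER stress element II the counts were 3 higher and 0 lower of 23 probe sets of 9 genes, with a median of 0.07. These shares were 13% and 0%, against 6.40% and 3.04% of all probe sets. For the UPR element they were 21 and 5 of 289 (7.27% and 1.73%, median 0.02). For the searched form of the ATF4-type element they were 15 and 7 of 184 (8.15% and 3.80%, median −0.0092). Not all genes with a match were measured: 20 of 37 for the ER stress element and 9 of 12 for element II. The UPR element had 143 of 193 and the ATF4-type form 105 of 293.

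The rest of the pathway was read through 6 lists of genes that hold no member. The lists were chosen with earlier results of these data known, so that a high share in a list is no independent test. ER chaperones and folding enzymes were the list with the most probe sets higher: 13 of 50, from 9 of 23 genes, and 0 lower, 26.0% against 6.40% of all probe sets. Of these 50, 43 lay above the median level, where 12 were higher, against 10.0% of all. The list's median difference was 0.07, against −0.01 over all probe sets, and above the median level 0.06, against 0.02 of all. None of the 50 passed after adjustment. The 13 became 4 without fluoxetine replicate 1, 9 without fluoxetine replicate 2, 7 without untreated replicate 1 and 9 without untreated replicate 2. They became 7 without the intensity trend and 5 with 1 probe set per gene. Other measures leaned with the group too. The median difference of the poly-A controls was 0.24. For astrocytes 9 of 26 probe sets were higher and 0 lower, and for excitatory neurons 4 of 16 were higher and 0 lower. Of 14 meningeal fibroblast probe sets 2 were higher and 0 lower. Of 22 oligodendrocyte probe sets 2 were higher and 4 lower, and 1 of 7 genes had a difference above 0. Among striatal markers 0 of 6 genes had a difference above 0, with a median of −0.57. The gap between 3′ and 5′ control probe sets differed between the groups by 0.15 for Tfrc, 0.14 for Pcx, −0.09 for Actb and −0.04 for Gapdh on the log2 scale. The part of these in the chaperone count was not tested.

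**Figure D4:**
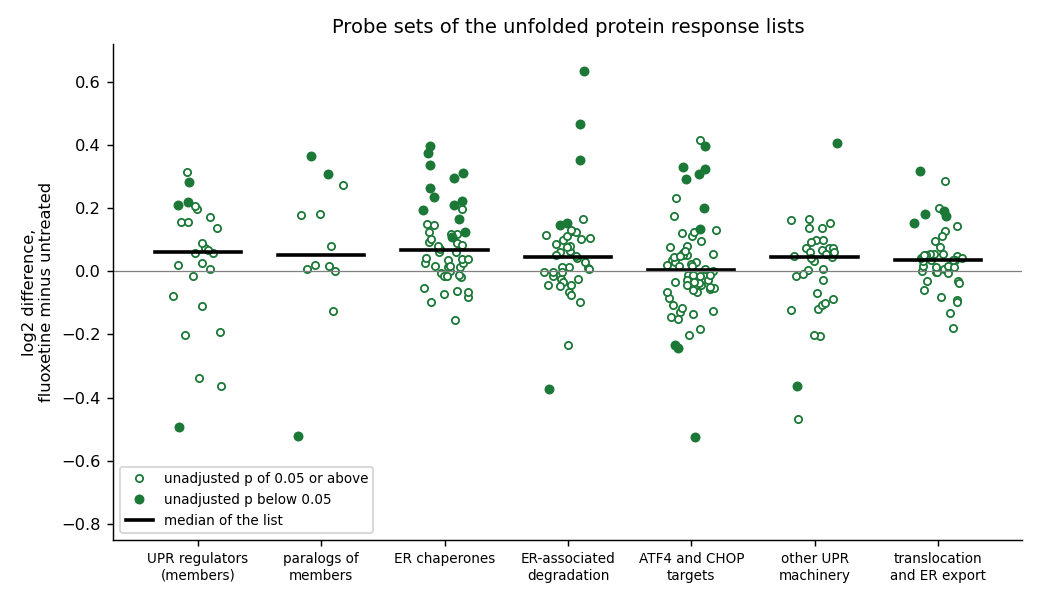
Log2 difference, fluoxetine minus untreated (vertical axis), of every probe set of the members and of the 6 pathway lists (horizontal axis), with sideways scatter for legibility. Filled points have an unadjusted p below 0.05 and the bar is the list's median, 0.07 for ER chaperones and 0.0032 for ATF4 and CHOP targets.

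Hspa5 encodes BiP, the ER chaperone that holds the sensors inactive, and 2 of its 3 probe sets were higher. Probe set 1416064_a_at read 12.21 and 12.26 with fluoxetine and 11.97 and 12.05 without, and 1427464_s_at read 11.07 and 10.94 against 10.58 and 10.69. The log2 differences were 0.22 (unadjusted p = 0.00243, adjusted p = 0.353 by limma) and 0.37 (unadjusted p = 0.000838, adjusted p = 0.331), while 1447824_x_at, with overlapping groups, had −0.08. Hsp90b1, the ER member of the Hsp90 family, had differences of 0.34 (1438040_a_at, unadjusted p = 0.000220) and 0.13 (1415889_a_at, unadjusted p = 0.0407). Pdia3, a disulfide isomerase that folds glycoproteins, had 0.20 and 0.08 over its probe sets. Dnajc3, a co-chaperone of BiP, ranged from −0.01 to 0.30 over 5 probe sets, and Manf, an ER stress-inducible secreted protein, had 0.17.

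Other chaperones that are usual readouts of the same branches did not pass. Dnajb9, a co-chaperone and a common target of spliced XBP1, had a difference of −0.06, with overlapping groups. Pdia4, a disulfide isomerase, had −0.05 and 0.12. The 3 probe sets of Calr, which encodes the lectin chaperone calreticulin, ran from −0.10 to 0.06. Edem1, a degradation gene downstream of XBP1, had −0.07 and −0.06.

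Genes of ER-associated degradation had 5 of 42 probe sets higher and 1 lower (median 0.05), or 11.9% and 2.38% against 6.40% and 3.04% of all probe sets. Above the median level the share higher was 13.5%, against 10.0% of all. The 5 became 2 without fluoxetine replicate 1, 3 without fluoxetine replicate 2, 2 without untreated replicate 1, 2 without the intensity trend and 1 with 1 probe set per gene. Os9, a lectin that selects misfolded glycoproteins, had a difference of 0.47 on 1426975_at but −0.0030 on 1426974_at. Ubxn4, a membrane anchor of the degradation complex, had 0.63, 0.16 and 0.09 over its probe sets. Edem3 had 0.15 on its bright and −0.37 on its dim probe set, and the ubiquitin-conjugating enzyme gene Ube2j1 0.03 and 0.35. Translocation and ER export genes had 5 of 43 higher and 0 lower (median 0.04), from Sec62, Sec61a1, Spcs2 and Ssr1. Each of these genes also had at least 1 probe set that did not pass. The share higher was 11.6% against 6.40% of all probe sets, and above the median level 13.5% against 10.0%. The 5 became 1 without fluoxetine replicate 1 or fluoxetine replicate 2, 2 without the intensity trend and 0 with 1 probe set per gene.

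ATF4 and CHOP targets had 7 of 64 probe sets higher and 3 lower, with a median of 0.0032 and 32 differences on each side of 0. These shares were 10.9% and 4.69% against 6.40% and 3.04% of all probe sets, and above the median level 10.4% were higher against 10.0% of all. The 7 became 0 without fluoxetine replicate 1, 3 without untreated replicate 2, 3 without the intensity trend and 2 with 1 probe set per gene. Asns, the asparagine synthetase and a common readout of ATF4, had −0.01 and 0.03. Atf3, a stress-induced transcription factor, had 0.29 (unadjusted p = 0.0499, adjusted p = 0.529 by limma). Chac1, a glutathione-degrading enzyme downstream of ATF4 and CHOP, had −0.13. Ppp1r15a encodes GADD34, which directs the phosphatase that removes phosphate from eIF2α, and read 8.46 and 8.32 with fluoxetine and 8.54 and 8.71 without, a difference of −0.23 (unadjusted p = 0.0393). Aldh1l2, a mitochondrial folate enzyme, had −0.53 on a dim probe set. The aminoacyl-tRNA synthetase genes Wars1 and Nars1 and the lipoprotein receptor gene Vldlr each had probe sets that passed upward beside others near or below 0. The other regulators and partners of the response had 1 of 35 higher and 1 lower, both from Mbtps1, the protease that cuts ATF6, whose bright probe set had −0.02. Both shares were 2.86%, and without untreated replicate 2 the counts were 3 and 3.

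Paralogs of the members were read by 12 probe sets, of which 2 were higher and 1 lower, against 6.40% and 3.04% of all probe sets. The 2 higher ones were among 9 above the median level, where 10.0% of all were higher. With an array left out 2 to 4 were higher, 4 of them without untreated replicate 1, and 0 to 2 lower, 2 of them without untreated replicate 2 and 0 without any other array. Trib2, a pseudokinase related to Trib3, read 10.46 and 10.41 with fluoxetine and 10.10 and 10.16 without on 1426640_s_at, and 7.41 and 7.43 against 6.99 and 7.12 on 1426641_at. The log2 differences were 0.31 (unadjusted p = 0.000921, adjusted p = 0.331 by limma) and 0.37 (unadjusted p = 0.00773), while another probe set near the bottom of the scale had −0.12. Trib1 had 0.27 and 0.0066. Sdf2 and Creld1, the paralogs of Sdf2l1 and Creld2, had 0.02 and 0.0003, with overlapping groups. Atf6b, the paralog of Atf6, had 0.18 with overlapping groups, and Herpud2 0.08, 0.02 and 0.18. Ern2, the paralog of Ern1 known from gut epithelium, had −0.52 on a dim probe set. Whether a paralog differed from its member was not tested.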

How the data were processed

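The authors deposited 1 log2 intensity for each probe set and array. Per the submitters' processing notes the tools were RMA, affy and limma, with versions and genome build not given in the sources used here. In all, the table held 45101 probe sets: 64 array controls, 34945 with 1 gene symbol in the platform annotation, 932 with several and 9160 with none. The 34945 were fitted with limma 3.58.1 in R 4.3.3 (lmFit, eBayes with intensity trend), fluoxetine minus untreated, two-sided, adjusted by Benjamini-Hochberg over all of them, with a threshold of 0.05. The fit had 2 residual and 5.11 prior degrees of freedom, so that each variance drew mainly on probe sets of like intensity. An exact permutation test of 2 against 2 cannot go below p = 0.333. Array number limits the precision. Differences of log2 intensities understate those of dim transcripts.

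The code was tested on simulated data. Members and lists were chosen with earlier results of these data known. Genes named outside the members were up to 4 per list with the smallest p among those at an unadjusted p below 0.05, and a fixed set; of 119 listed genes, 6 had no probe set with 1 symbol and were not analysed here. Marker sums add linear intensities over the brightest probe set of each gene. Alternatives were the trend, another quantile normalization, array medians, a filter on level, all probe sets, 1 probe set per gene, a robust prior, and each array left out.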

Additional observations from a re-analysis of the deposited data

How the results depend on the processing

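Over the alternatives, the median difference of the members stayed between 0.03 and 0.10 and that of ER chaperones between 0.04 and 0.10. The lowest adjusted p of a member was 0.381, and 0.246 to 1 over the alternatives. The members' 3 higher and 1 lower became 0 and 0 with 1 probe set per gene, where the Xbp1 and Atf4 probe sets past the threshold are not the brightest and are left out; the lower count was 3 without the intensity trend, and 0 above the median level as well as after a repeated quantile normalization. With an array left out they were 2 to 4 higher and 0 to 2 lower. Over all probe sets, 2237 higher and 1064 lower became 628 and 638 with 1 probe set per gene, the lower count 703 after subtracting array medians and 301 above the median level, and 707 to 2326 higher and 337 to 1594 lower with an array left out, where fluoxetine replicate 1 gave the lowest counts. The higher share of these calls, 67.8%, was 50.3% without the trend, 79.6% after subtracting array medians, 85.3% above the median level and 49.6% with 1 probe set per gene. The 1 probe set past adjustment became 0 without the trend, with 1 probe set per gene and in 3 of the 4 fits without an array (0 to 1). The 6 pathway lists had 33 higher and 6 lower: 17 higher without the trend, 9 and 3 with 1 probe set per gene, 2 lower above the median level, and 9 to 28 higher and 1 to 8 lower with an array left out. ER chaperones had 7 higher without the trend, 5 with 1 probe set per gene, 4 to 9 with an array left out, and 1 lower after another quantile normalization (0 to 1 with an array left out).

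The sign of 8 member probe sets turned under some alternative, none of them past an unadjusted p of 0.05 with all arrays. After another quantile normalization Atf6 1435444_at was −0.011 and Ern1 1437119_at −0.013, and after subtracting array medians Eif2ak3 1449278_at was 0.022. With an array left out, Atf6 1453288_at ran from −0.10 to 0.14, Ddit3 1443897_at from −0.014 to 0.36, Eif2ak3 1449278_at from −0.053 to 0.023, Ern1 1437119_at from −0.047 to 0.061, Ern1 1438583_at from −0.48 to 0.10, Herpud1 1448185_at from −0.0060 to 0.14 and Trib3 1426065_a_at from −0.28 to 0.13. The cause of these changes was not tested. No paired analysis was possible because the labels give the groups no shared replicate numbers. A left-out array leaves 1 array in its group, which is assumed to vary like the other group. Members at or below the median level lie where background weighs most.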
